A study of Homo sapiens with 6 samples.

Results

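The large subunit of the cytosolic ribosome is built from ribosomal RNA and a set of RPL and RPLP proteins. The messenger RNAs of 45 of these proteins were followed here, chosen by name as the protein-coding large subunit genes, the P-stalk genes RPLP0, RPLP1 and RPLP2 included, and without their pseudogenes. All 45 had an Ensembl gene among the 48162 of the deposited count table, and all 45 passed edgeR's filter on low counts together with the other genes of the 15860 tested. The cells were SiHa, an established HPV-positive human cervical cancer line of epithelial origin. They received si-CNN3#1, a small interfering RNA (siRNA) duplex against the actin-binding protein gene CNN3, or si-NC, a control duplex, so both groups were transfected. The medium was renewed at 24 h according to the labels, and total RNA was taken at 48 h from 3 samples of each group. A single siRNA sequence in 1 cell line stood for the loss of CNN3, and untransfected cells were not analysed here.

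The large subunit holds the peptidyl transferase centre, where amino acids are joined, and the tunnel through which the new chain leaves. Its flexible side stalk, made of RPLP0 with dimers of RPLP1 and RPLP2, recruits and activates the elongation factors. Ribosomal protein messenger RNAs are abundant in growing cells, and most of them start with a C followed by a run of pyrimidines, the 5′ terminal oligopyrimidine (5′TOP) motif, through which mTOR signalling and LARP1 control their translation and stability.

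The sequences that bear on the comparison are the siRNA duplexes and the start regions of the members that differed most. The sense strands are printed because they define the 2 groups, with the deoxythymidine overhang in capitals:
si-CNN3#1: gcagaugggaaccaacaaaTT
si-NC: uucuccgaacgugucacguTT
The guide strand, taken as the reverse complement of the 19 bases before the overhang, has its seed (bases 2 to 8) in capitals:
si-CNN3#1 guide: uUUGUUGGuucccaucugc
si-NC guide: aCGUGACAcguucggagaa
A seed site for si-CNN3#1 (CCAACAA) lay in the protein-coding transcripts of RPL23A and RPL29, that is in 2 of the 45 members (4.44%), against 26.4% of the 12697 tested genes with such transcripts. Neither of these members passed the test, and no member that fell held the site. The site for si-NC (TGTCACG) lay in RPL3, which fell, and in RPL37A, which did not pass, against 8.04% of the tested genes. The longest stretch of the si-CNN3#1 sense strand in any member was 11 bases, in RPL27A. A longer transcript has more room for a site, and the lengths behind the members' FPKM values had a median of 864 bases.

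The start regions of the 3 stalk genes and of RPL31, the 4 members with the largest decreases, are given below from RefSeq on GRCh38.p14, from 250 bases before the annotated start to 50 bases from it, on the strand of the gene. Capitals mark the unbroken run of C and T from the start base.
RPLP1, chr15:69452568-69452867, plus strand: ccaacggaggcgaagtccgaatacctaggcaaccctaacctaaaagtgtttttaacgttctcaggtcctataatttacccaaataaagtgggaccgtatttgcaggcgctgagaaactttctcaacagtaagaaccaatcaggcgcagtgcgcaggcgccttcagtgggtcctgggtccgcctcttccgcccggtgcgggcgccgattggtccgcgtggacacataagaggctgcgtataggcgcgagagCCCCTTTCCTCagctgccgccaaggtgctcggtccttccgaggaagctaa
RPLP2, chr11:809717-810016, plus strand: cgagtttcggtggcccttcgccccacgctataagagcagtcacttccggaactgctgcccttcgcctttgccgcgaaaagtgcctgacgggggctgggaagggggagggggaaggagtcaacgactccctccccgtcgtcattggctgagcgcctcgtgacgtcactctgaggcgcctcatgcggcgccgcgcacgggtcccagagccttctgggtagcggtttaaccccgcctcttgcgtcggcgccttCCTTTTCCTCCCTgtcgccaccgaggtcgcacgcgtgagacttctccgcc
RPLP0, chr12:120201062-120201361, minus strand: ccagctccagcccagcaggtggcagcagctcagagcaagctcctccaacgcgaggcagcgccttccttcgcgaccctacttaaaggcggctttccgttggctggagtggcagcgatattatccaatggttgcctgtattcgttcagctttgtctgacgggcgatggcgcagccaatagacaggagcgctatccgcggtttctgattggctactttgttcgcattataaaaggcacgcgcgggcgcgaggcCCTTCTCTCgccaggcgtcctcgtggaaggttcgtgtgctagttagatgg
RPL31, chr2:101002039-101002338, plus strand: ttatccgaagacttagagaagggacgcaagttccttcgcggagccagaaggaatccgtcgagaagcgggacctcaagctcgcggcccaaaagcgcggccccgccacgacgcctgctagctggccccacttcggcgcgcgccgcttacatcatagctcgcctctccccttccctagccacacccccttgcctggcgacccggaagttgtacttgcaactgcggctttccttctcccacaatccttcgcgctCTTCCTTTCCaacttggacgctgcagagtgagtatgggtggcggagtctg
The runs were 11 bases in RPLP1, 13 in RPLP2, 9 in RPLP0 and 10 in RPL31. A start region was found for 38 of the 45 members, not for RPL5, RPL7, RPL8, RPL23, RPL23A, RPL30 and RPL37. A C at the start base and a run of at least 5 pyrimidines was present in 28 of these 38 (73.7%), against 793 of the 11105 tested genes with such a region (7.14%). The run was present in 7 of the 8 members that fell, in 20 of the 29 that did not pass, and in RPL36, which rose. The member that fell without it was RPL3, with a run of 4. RPL39 and RPL7A had the longest runs, 19 and 16 bases, and neither passed the test. Of the shorter motifs searched in the whole region, GGAAGT (either strand) was in 42.1% of the members and 32.5% of the tested genes, AAGATGG (either strand) in 13.2% and 9.2%, and TATAAA (sense strand) in 2.63%, RPLP0 alone, and 5.56%. A match describes the letters of the region and not a site in use.

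Counts on genes added up to between 18147028 and 24976517 per sample, with the larger totals in the si-NC samples. CNN3 fell to 50.9% of its control level, a log2 change of -0.97 with an SE of 0.06 (Benjamini-Hochberg adjusted p = 2.04e-20 in the quasi-likelihood F-test of edgeR), so the target was lower in the samples labelled with its siRNA. The epithelial markers KRT7, KRT8, KRT18 and CDH1 were present, KRT19 and EPCAM were low at 4.90 to 7.34 FPKM, and the leukocyte and endothelial markers stayed at or under 1.28 FPKM. Of the fibroblast markers COL1A1 had 3.16 to 4.11 FPKM and DCN 2.63 to 3.31 FPKM, COL3A1 reached 1.49 and COL1A2 0.167 FPKM, and none that was tested passed. KRT8 and KRT18 also fell between the groups, by 0.19 and 0.18 on the log2 scale (adjusted p = 4.87e-07 and 5.31e-05, same test). In these bulk samples, less RNA per cell and fewer cells with the RNA cannot be told apart. P values in this comparison measure the spread between samples that the study describes as independent assays.

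Large subunit genes were among the most abundant transcripts in the control cells. Levels are compared between genes in FPKM, which divides a gene's count by its length and by the sample total. Together the 45 members took 3.68 ± 0.0546% of all counts with si-NC and 3.56 ± 0.0530% with si-CNN3#1 (SD, n = 3 each). RPL8, at 3073 ± 8.89 FPKM, RPL41, at 3058 ± 15.9 FPKM, and RPL13, at 2889 ± 30.7 FPKM, had the highest levels with si-NC (SD, n = 3). RPL8 borders the peptidyl transferase centre, RPL41 is the smallest member and sits at the interface with the small subunit, and RPL13 lies on the surface. The samples of RPL8 and RPL41 overlapped, and RPL13 lay below both in each si-NC sample. Over the 40 members above 100 FPKM the control level ran from 303 FPKM (RPL9) to 3073 FPKM, a 10.15-fold range, although the finished subunit holds a single copy of each apart from RPLP1 and RPLP2.

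**Figure D1:**
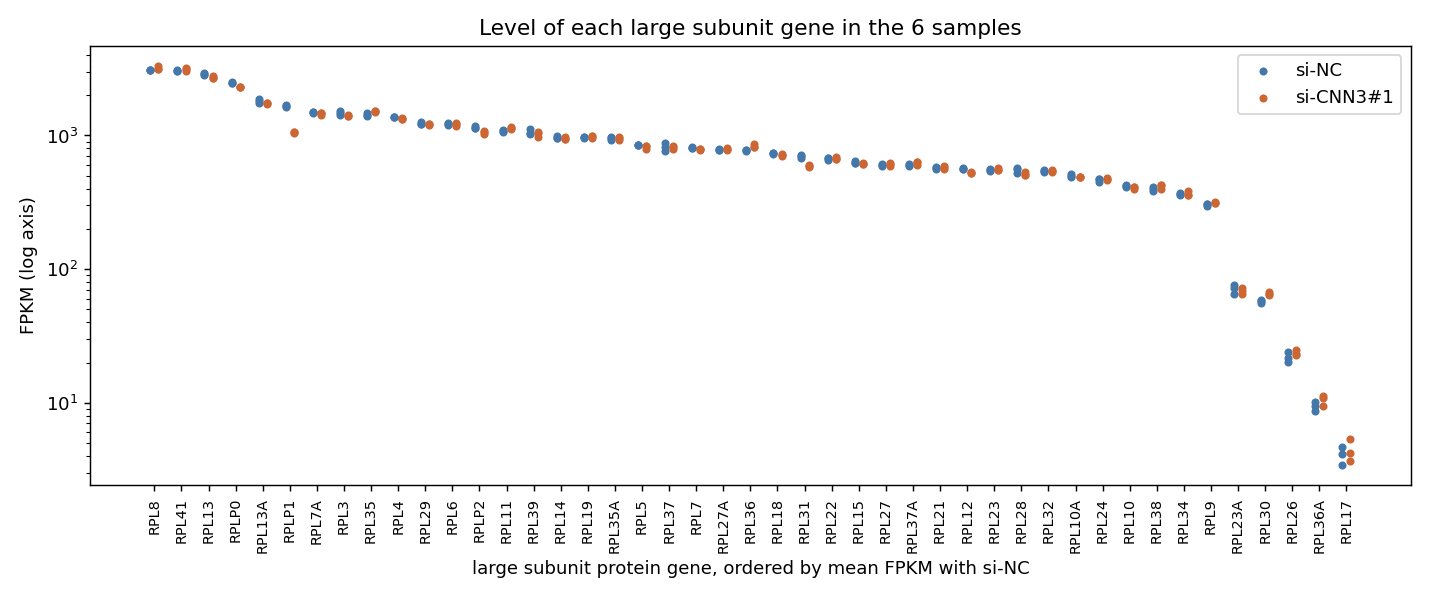
Level of each of the 45 large subunit genes in FPKM on a log axis, with 1 point per sample for si-NC (blue) and si-CNN3#1 (orange), ordered by the control mean. The points of a gene lie close together against the spread between genes, RPLP1 is the member with a visible gap between the groups, and the 5 genes at the right lie below 100 FPKM.

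Replicates varied little. Among the 40 members above 100 FPKM the coefficient of variation of the normalized counts had a median of 1.84% with si-NC and 2.41% with si-CNN3#1. The median standard error of their log2 fold changes was 0.025, against 0.028 for all 1495 tested genes with a mean of at least 100 FPKM and 0.066 for all tested genes. The called members nearest their control level were RPL36, at 105.8%, and RPL3, at 93.9%. Abundant members between 95.4% and 104.3% were not called.

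The other 5 members were listed far lower. RPL17, at the exit tunnel, had 4.66, 4.17 and 3.41 FPKM with si-NC and 4.18, 3.65 and 5.39 FPKM with si-CNN3#1. RPL36A had a mean of 9.37 FPKM, RPL26 21.9, RPL30 57.2 and RPL23A 70.9 with si-NC. The groups overlapped in each of them except RPL30. In the GENCODE 29 annotation each of the 5 shares exon sequence with another listed gene. For RPL17 this is RPL17-C18orf32, which covers 24.8% of the exon bases of RPL17 on the same strand and had at most 1 count. The percentages are of all annotated exon bases of a gene, which exceed the length behind its FPKM. In RPL17 611 of 2466 bases are shared, beside an FPKM length of 634. For RPL36A the other gene is RPL36A-HNRNPH2 on the same strand, with 8.40% (333 bases, FPKM length 750) and 0 counts. RPL26 shares 14.3% (360 bases, FPKM length 591) with AC135178.2 on the same strand (0 to 4 counts). RPL30 shares 21.6% with the antisense gene AP003352.1 (20 to 30 counts), and RPL23A shares 5.49% with the antisense gene AC010761.1 (116 to 198 counts). Abundant members share exon sequence too, so sharing on either strand is not particular to the 5. On the same strand it was found in RPL17, RPL36A and RPL26, the lowest members, and among the abundant ones only in RPL36 and RPL18. RPL36 shares 17.6% (400 bases, FPKM length 591) with HSD11B1L on the same strand and had 774 FPKM with si-NC. RPL18 shares 6.30% with AC022154.1 on the same strand and had 734 FPKM with si-NC. On the opposite strand, RPL38 shares 17.65% with MGC16275 (396 FPKM) and RPL10 34.2% with DNASE1L1 (419 FPKM). Genes named as pseudogenes held further reads. The 49 for RPL17 had 60 to 101 counts in all per sample, against 44 to 66 on RPL17 itself, and the 88 for RPL23A had 383 to 491. Such reads were not confined to low members, as the 36 for RPL32, at 541 FPKM with si-NC, had 422 to 554. The rule the authors' counting used for overlapping genes and for reads with several matches is not given in the sources used here, so the levels of these 5 members are uncertain, and the part of that rule in their low values was not tested.

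The comparison asks how the large subunit transcripts differ between cells with si-CNN3#1 and cells with si-NC. Most of them differed little, and RPLP1 stood far below the rest. Of the 45 members, 8 fell and 2 rose at an adjusted p of 0.05 or less in edgeR, and 35 did not pass. Of all 15860 tested genes 7.14% were called lower and 6.17% higher, against 17.8% and 4.44% of the members. The members are abundant, and so are more easily called. Among the 1495 tested genes with a mean of at least 100 FPKM 18.4% were called lower and 11.8% higher, and of the 40 members above that level 8 were called lower and 1 (2.5%) higher. The share of members that fell was therefore near that of other abundant genes. Groups did not overlap and si-CNN3#1 was the lower in 16 members (35.6%), against 14.3% of all tested genes, and the higher in 2 members (4.44%), against 13.9%. These shares were not taken over the abundant genes alone, so the comparison is not matched for abundance. The median log2 fold change was -0.02 over the 45 members, beside 0.0023 over all tested genes. Over the 40 abundant members it was -0.04, with 30 of them below 0, beside -0.0092 over the abundant genes.

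**Figure D2:**
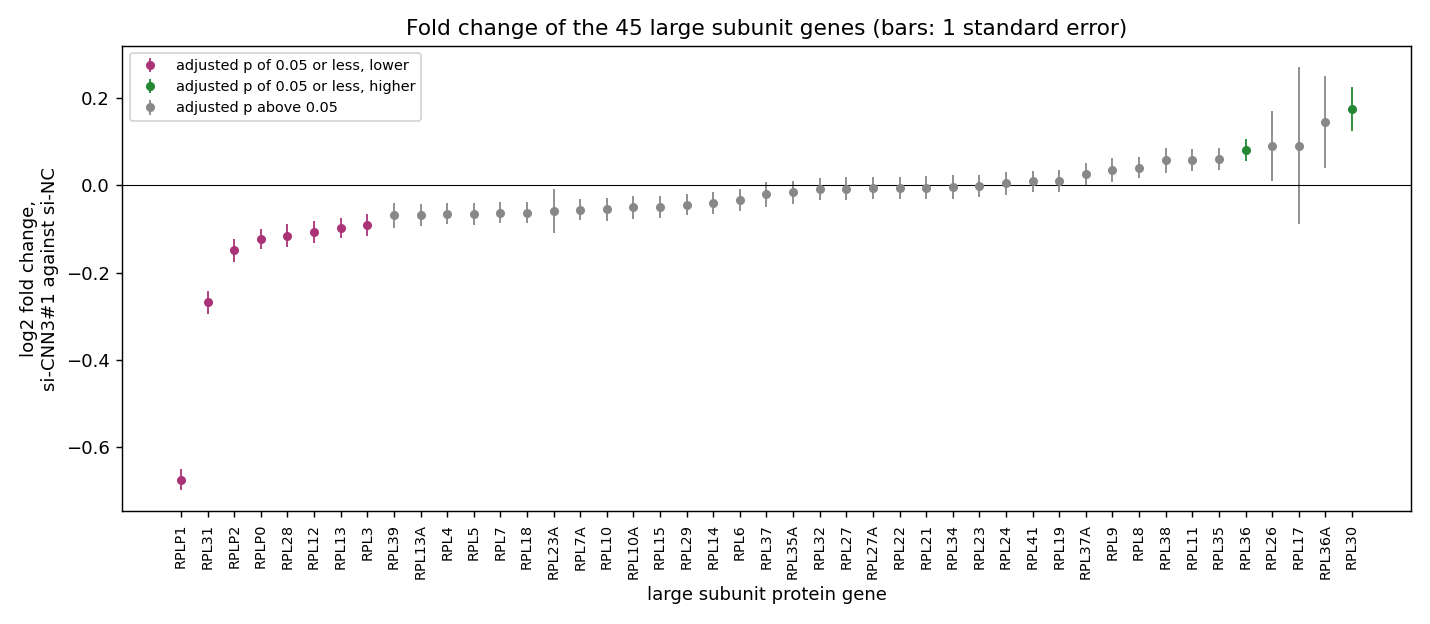
Log2 fold change of si-CNN3#1 against si-NC for the 45 large subunit genes in rising order, with bars of 1 standard error and colours for the 8 lower, 2 higher and 35 other genes. RPLP1 stands at -0.67 and RPL31 at -0.27, while the other members run from -0.15 to 0.17.

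All 3 members of the P-stalk fell, as did RPL12 at its base. RPLP1 (ENSG00000137818, chromosome 15, 69452784 to 69456194, plus strand, GRCh38), an acidic stalk protein that pairs with RPLP2, had 1544, 1496 and 1483 CPM with si-NC and 953, 932 and 950.2 CPM with si-CNN3#1. CPM are TMM-normalized counts on a scale shared by the 6 samples. The 3 samples of each group lay close together, and the gap between the groups was many times wider than either spread. The level with si-CNN3#1 was 62.7% of the control, a log2 change of -0.67 with an SE of 0.02 (adjusted p = 2.43e-29 in the F-test of edgeR). Permuting the samples exactly on the CPM gave a two-sided p = 0.1, which is as low as 3 against 3 can go.

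RPLP2 (ENSG00000177600, chromosome 11, 809647 to 812880, plus strand), the partner of RPLP1 in the dimer, had 619.7, 591 and 599.6 CPM with si-NC and 560.3, 527 and 546 CPM with si-CNN3#1. The groups did not overlap, and the gap between them was close to the range within each. Its log2 change was -0.15 with an SE of 0.03 (adjusted p = 2.31e-05 in the F-test of edgeR), or 90.2% of the control. RPLP0 (ENSG00000089157, chromosome 12, 120196686 to 120201235, minus strand), which anchors the dimers to the ribosome, had 2219.6, 2218 and 2192 CPM with si-NC and 2052, 2022 and 2016 CPM with si-CNN3#1. All 3 samples with si-CNN3#1 were again below all 3 with si-NC. Its log2 change was -0.12 with an SE of 0.02 (adjusted p = 7.36e-05, same test), or 91.9% of the control. RPL12, at the base of the stalk, had 529.5, 520.3 and 519.9 CPM with si-NC and 494, 481 and 483 CPM with si-CNN3#1. It fell by 0.11 on the log2 scale with an SE of 0.03 (adjusted p = 0.00176, same test), close to RPLP0.

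**Figure D3:**
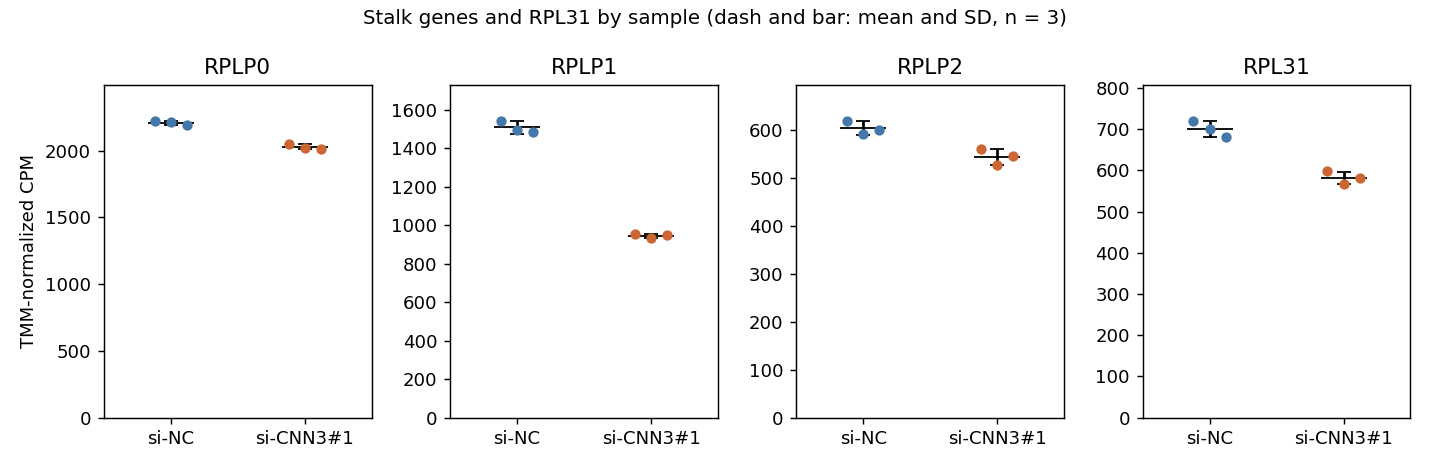
TMM-normalized CPM of RPLP0, RPLP1, RPLP2 and RPL31 in each sample (points), with mean and SD (dash and bar, n = 3) and axes from 0. The groups are apart in all 4 genes, with RPLP1 at 62.7% of its control level, RPL31 at 83.1%, RPLP2 at 90.2% and RPLP0 at 91.9%.

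The stalk transcripts also changed relative to each other. Ratios of counts within a sample need no scaling between samples. The ratio of RPLP1 to RPLP2 counts was 2.49, 2.53 and 2.47 with si-NC and 1.70, 1.77 and 1.74 with si-CNN3#1. The groups were apart, and the ratio with si-CNN3#1 was 69.5% of the control, a log2 difference of -0.53 (p = 0.1 in an exact permutation test, two-sided, the lowest possible). Per length, RPLP1 was 1.44 ± 0.0164 times RPLP2 in FPKM with si-NC and 1.00 ± 0.0196 times with si-CNN3#1 (SD, n = 3 each). The ratio of RPLP1 to RPLP0 counts went from 0.695, 0.675 and 0.677 to 0.464, 0.461 and 0.471, or 68.2% of the control (exact permutation p = 0.1). The ratio of RPLP2 to RPLP0 counts was 0.273 ± 0.00632 with si-NC and 0.268 ± 0.00649 with si-CNN3#1 (SD, n = 3), and these groups overlapped (exact permutation p = 0.4). RPLP1 thus stood apart from both its partners, whose own ratio moved by -0.03 on the log2 scale against SDs of 0.0335 and 0.0351. By replicate number, the RPLP2 to RPLP0 ratio was 0.279, 0.267 and 0.2735 with si-NC. With si-CNN3#1 it was 0.273, 0.261 and 0.271, lower at each number. A test of this ratio with the replicate number as a block was not run.

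**Figure D4:**
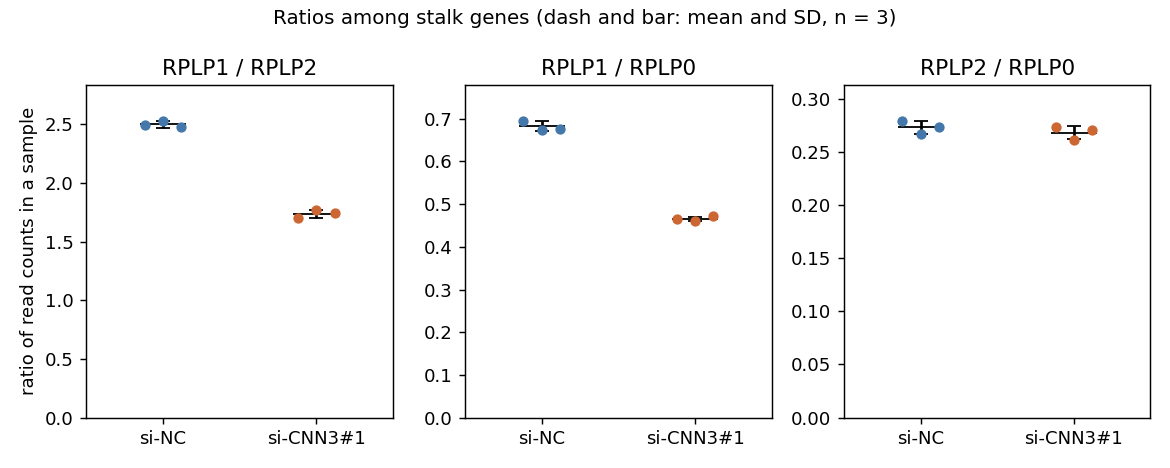
Ratios of the read counts of RPLP1 to RPLP2, RPLP1 to RPLP0 and RPLP2 to RPLP0 in each sample (points), with mean and SD (dash and bar, n = 3) and axes from 0. Both ratios with RPLP1 are lower in all 3 si-CNN3#1 samples, at 69.5% and 68.2% of the control, and the points of the RPLP2 to RPLP0 ratio overlap.

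RPLP1 made up 3.88 ± 0.0190% of the summed FPKM of the 45 members with si-NC and 2.53 ± 0.0267% with si-CNN3#1 (SD, n = 3 each). Without RPLP1 the members' share of all counts was 3.53 ± 0.0518% with si-NC and 3.47 ± 0.0525% with si-CNN3#1, a gap of about the size of the spread. Reads on RPLP1 pseudogenes were few, with 16 to 34 counts in all per sample on 5 named genes.

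RPL31 was the member with the next largest decrease. It belongs to the rim of the tunnel exit, where factors that handle the new chain dock. RPL31 (ENSG00000071082, chromosome 2, 101001715 to 101024032, plus strand) had 721, 699 and 682 CPM with si-NC and 598, 568 and 581 CPM with si-CNN3#1. The groups did not overlap, and the level with si-CNN3#1 was 83.1% of the control, a log2 change of -0.27 with an SE of 0.03 (adjusted p = 5.18e-12 in the F-test of edgeR). An antisense gene, AC016738.1, covers 9.15% of its exon bases and had 1 to 6 counts. The other 4 rim members did not pass: RPL23A (-0.06), RPL19 (0.01), RPL35 (0.06) and RPL26 (0.09 on the log2 scale).

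The other members that fell reached between 92.3% and 93.9% of their control levels. RPL28, a surface protein, had 870.4, 849 and 806 CPM with si-NC and 809, 761 and 762 CPM with si-CNN3#1, and here the groups overlapped although the test called the gene (-0.12 on the log2 scale, adjusted p = 0.00138 in the F-test of edgeR). RPL13 had 3123, 3038 and 3102 CPM with si-NC and 2966, 2844 and 2847 CPM with si-CNN3#1 (-0.10, adjusted p = 0.00219, same test). RPL3, which reaches into the peptidyl transferase centre, had 1359.8, 1309.7 and 1278 CPM with si-NC and 1265, 1222 and 1220.2 CPM with si-CNN3#1 (-0.09, adjusted p = 0.00838, same test). In RPL13 and RPL3 the groups did not overlap, but in both genes the gap was narrower than the range of the si-NC samples. RPL3 did not pass without si-NC replicate 1 (-0.07, adjusted p = 0.131 in edgeR).

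RPL36 and RPL30, at the surface of the subunit, rose. RPL36 had 458.5, 459 and 464 CPM with si-NC and 482, 477 and 503 CPM with si-CNN3#1, a log2 change of 0.08 with an SE of 0.03 (adjusted p = 0.0243 in the F-test of edgeR). Its groups did not overlap. The call was lost when si-NC replicate 1, 2 or 3 or si-CNN3#1 replicate 3 was left out (adjusted p = 0.0816, 0.073, 0.0616 and 0.178 in edgeR), and also with the trend with gene length removed (adjusted p = 0.106). RPL36 shares 17.6% of its exon bases with HSD11B1L (21 to 52 counts) and 1.89% with LONP1 on the opposite strand (5856 to 8697 counts). RPL30 had 36.6, 35.2 and 37.2 CPM with si-NC and 41.2, 39.8 and 41.9 CPM with si-CNN3#1, and its groups were apart (0.17 on the log2 scale, SE 0.05, adjusted p = 0.0123, same test). It did not pass without si-NC replicate 2 (adjusted p = 0.0812 in edgeR) or without si-CNN3#1 replicate 3 (adjusted p = 0.0612), and its level is uncertain, as given above.

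No member of 3 further roles passed the test. These were the exit tunnel (RPL4, RPL17 and RPL39, from -0.07 to 0.09 on the log2 scale), the 5S particle (RPL5 and RPL11, which with 5S ribosomal RNA can bind MDM2, at -0.06 and 0.06), and the interface with the small subunit (RPL23, RPL24, RPL36A and RPL41, from -0.0015 to 0.15). In the peptidyl transferase centre RPL10 (-0.06) and RPL8 (0.04) did not pass beside RPL3. The 24 other surface and core members had a median of -0.02, with 2 higher, 2 lower and 20 not passing. Over the 31 abundant members that did not pass, the level with si-CNN3#1 was between 95.4% and 104.3% of the control, and the 95% intervals of the log2 fold change all lay between -0.1245 and 0.115. In 9 of them the si-CNN3#1 samples were nevertheless all below the si-NC samples, with RPL13A, RPL4 and RPL5 nearest the threshold (adjusted p = 0.0564, 0.0581 and 0.0793 in the F-test of edgeR).

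The lists of related genes were taken from the same fit. Of the 32 small subunit genes tested 4 rose and 4 fell, with a median log2 fold change of -0.0094. RPS29 (0.15), FAU (0.13) and RPS28 (0.12) rose most, although the samples of RPS29 overlapped between the groups. RPSA (-0.10) and RPS16 (-0.08) were among those that fell. Among 8 further large subunit genes and paralogs, RPL26L1 (0.29) and RPL3L (1.25), a muscle paralog with 10 to 27 counts per sample, rose. Of the 47 mitochondrial large subunit genes 5 rose, led by MRPL33 (0.38), MRPL13 (0.19) and MRPL47 (0.19), and MRPL35 fell (-0.17), with a median of 0.04 and 38 genes above 0. These counts moved when a sample was left out. The lower small subunit genes numbered 1 without si-CNN3#1 replicate 2, 2 without si-NC replicate 1 and 7 without si-CNN3#1 replicate 1, and the higher ones 2 without si-NC replicate 3. The higher mitochondrial genes numbered 3 without si-NC replicate 1, si-NC replicate 2 or si-CNN3#1 replicate 3, and no mitochondrial gene was lower without si-NC replicate 1 or 2 or si-CNN3#1 replicate 1 or 2.

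Genes of the elongation factor list moved in both directions. Of the 10 tested, EIF5A2 (0.32), EEF1A2 (0.12) and EIF5A (0.11) rose. EEF1A1 (-0.14), which delivers transfer RNA, and EEF2 (-0.07), which moves the ribosome along, fell. For EEF1A2 the samples of the 2 groups overlapped. Of 19 other genes known to carry a 5′TOP start 5 fell, among them NAP1L1 (-0.24), EIF4B (-0.18) and EEF1A1, FAU rose, and the median was -0.03. Of 31 genes for assembly and export of the large subunit BCCIP (-0.22) and NIP7 (-0.15) fell, and EIF6 (0.14) and NMD3 (0.13) rose, with a median of -0.0066. The samples of EIF6 overlapped between the groups. With DESeq2, and without si-NC replicate 2 or si-CNN3#1 replicate 1, 0 of the assembly genes were higher, and leaving out any other sample left 1. Only 1 elongation factor gene was lower without si-NC replicate 1, 2 or 3 or si-CNN3#1 replicate 2 or 3, and no gene of the 5′TOP list was higher without si-NC replicate 3 or si-CNN3#1 replicate 3. None of these lists held a gene called lower with a change as large as that of RPLP1.

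**Figure D5:**
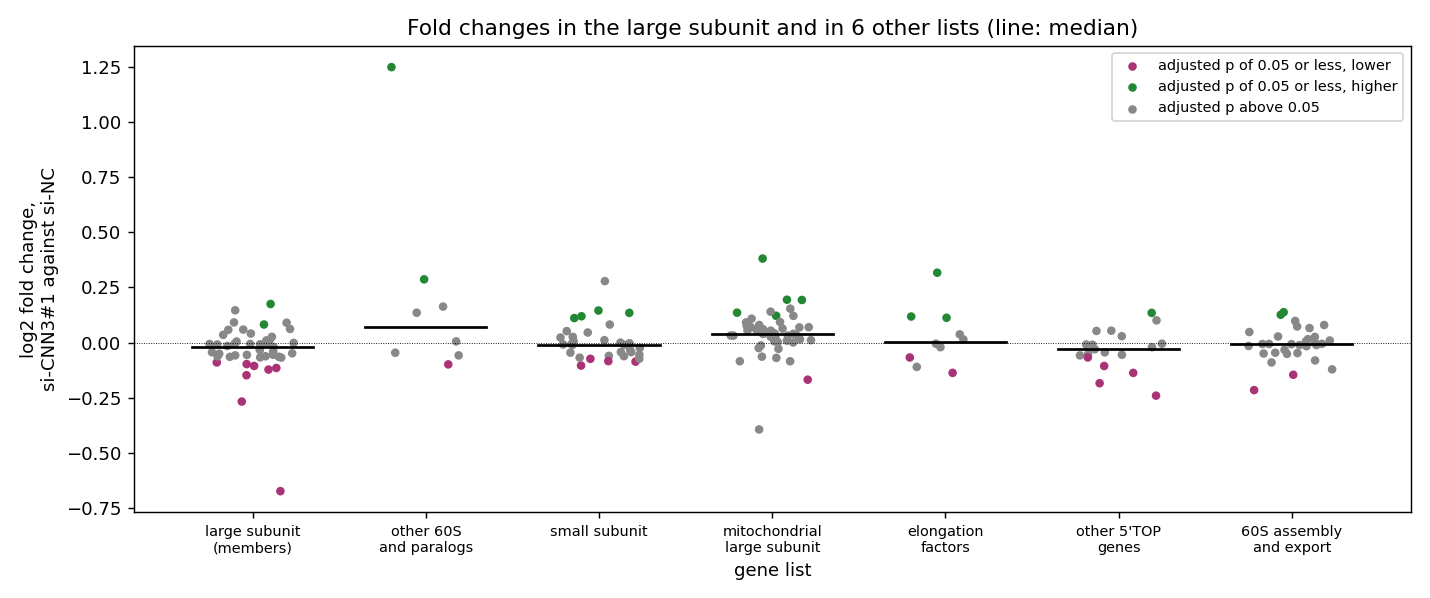
Log2 fold changes of the 45 large subunit genes and of 6 related lists, with 1 point per tested gene, colours for genes that passed the test in each direction, and a line at each median. The medians lie between -0.03 and 0.07, and RPLP1 at -0.67 is the lowest point shown.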

How the data were processed

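RNA of SiHa cells with si-CNN3#1 or si-NC was sequenced on an Illumina instrument from TruSeq RNA libraries, with 3 samples per group named by the labels. According to the submitters' processing notes the tools included TopHat2 2.0.9, Bowtie2 2.0.6, HTSeq and DESeq 1.10.1. The authors deposited raw read counts per Ensembl gene and sample, and FPKM values that equal the deposited counts divided by a whole-number gene length and the sample total. Neither the genome build nor the annotation, the strand setting or the handling of multiply matching reads is given in the sources used here. Names and positions came from GENCODE 29 (GRCh38), which matched 45038 of 48162 identifiers and left 3124 without a name.

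Counts were tested with edgeR 4.0.16 in R 4.3.3 (TMM, filterByExpr, glmQLFit and glmQLFTest) on condition alone. P values were adjusted by Benjamini and Hochberg's method over 15860 tested genes, with a threshold of 0.05. The SE was obtained as |log2 fold change| over the square root of F, and 95% intervals used 1.96 standard errors. The common biological coefficient of variation was 0.0232. No samples were merged, since those of a group had a chi-square of 1.56 to 1.98 per degree of freedom, above counting noise. The edgeR test, alone and with a replicate block or with the length trend removed, was also run on simulated data. So were DESeq2 and filtered limma with a pseudocount of 1, and the other alternatives were not simulated. The members and lists were chosen with earlier results of these data known. Named genes were the stalk genes, members past the threshold, the 3 highest and 3 lowest members by FPKM, members whose call changed when a sample was left out or a replicate block was used, and up to 3 genes per list and direction, some of which are not reported here. MRPL45 and BOP1 of the lists, and the marker PECAM1, had no matched identifier. Alternatives were RLE, upper quartile, total-count and ribosomal-protein-free TMM scaling, other filters, DESeq2 1.42.0, a replicate block, removal of a trend with gene length (loess span 0.3), pseudogene reads added to the parent, limma 3.58.1 on log2 FPKM with a pseudocount of 1 or 0.1, which understates changes of low genes, and each sample left out. Counts per member and sample bound the precision, and the lowest were 44 to 66 for RPL17.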

Additional observations from a re-analysis of the deposited data

How the results depend on the processing

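RPLP1 and RPL31 were called lower under each of the 20 alternatives run on them, with RPLP1 between -0.69 and -0.66, and no call of a member or of CNN3 changed direction. RPLP0, RPLP2, RPL12 and RPL13 lost their call only with unfiltered limma on log2(FPKM + 1), where 2 members were lower and 1 was higher. RPL28 lost it with all 3 limma fits, and RPL3 with these and without si-NC replicate 1. Against 8 lower and 2 higher members, total counts gave 8 lower and 4 higher, DESeq2 9 lower and 1 higher, removal of the length trend 12 lower and 1 higher, and no filter on low counts 12 lower and 2 higher. RPL36 lost its call with the length trend removed (adjusted p = 0.106), with unfiltered limma (adjusted p = 0.138) and in the 4 fits without a sample named beside it. RPL30 lost its call with DESeq2, without si-NC replicate 2 and without si-CNN3#1 replicate 3. Leaving out samples gave 7 to 13 lower and 0 to 4 higher members. The 13 came without si-CNN3#1 replicate 1, which added RPL4, RPL5, RPL13A, RPL18 and RPL39, the 4 without si-CNN3#1 replicate 2, which added RPL11 and RPL38, and the 0 without si-NC replicate 2 or si-CNN3#1 replicate 3. RPL35 was gained without si-NC replicate 1. The log2 difference of the RPLP1 to RPLP2 ratio lay between -0.54 and -0.51 and that to RPLP0 between -0.56 and -0.54. Scaling by total counts turned the split of all calls from 978 higher and 1133 lower to 1294 higher and 863 lower, and upper quartile scaling to 1046 and 1010. The other counts of all calls beyond 1.5 times came with DESeq2 (522 higher, 724 lower) unfiltered limma (316 and 269) and limma on filtered FPKM (799 or 789 higher, 564 lower). With the replicate number as a block 17 members were lower and 4 higher, adding RPL4, RPL5, RPL7, RPL7A, RPL10, RPL13A, RPL15, RPL18 and RPL39 below and RPL11 and RPL35 above, and with the length trend also removed 21 were lower. Whether the replicate numbers pair the samples is not given in the sources used here. Over all tested genes, deviations of same-numbered samples correlated at only 0.01 to 0.033, which cannot decide it. Each sample correlated best with its own number, a hint from the data and not the design. The cause of these moves was not tested. Over all alternatives the small subunit list had 0 to 4 higher and 0 to 12 lower calls, the mitochondrial list 2 to 9 and 0 to 1, the elongation factors 0 to 3 and 0 to 2, the other 5′TOP genes 0 to 2 and 2 to 8, and the assembly genes 0 to 2 (0 with DESeq2 and with no filter on low counts) and 1 to 3. The 5 low members had standard errors of 0.05 to 0.18, and RPL17, with 44 to 66 counts, the largest.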
